A study of Mus musculus with 2 samples.

Results

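Mir335, Mir296, Mir298, Mir483 and Mir675 are the miRNA genes of 4 imprinted growth loci of the mouse: Mest, the Gnas region, Igf2 and H19. They were chosen by symbol and locus, and they are 5 of the 1973 miRNA genes in the tables. The libraries held small RNA from the facial prominences of healthy B6NCrl embryos at embryonic day 10.5, the outgrowths of neural crest mesenchyme and surface epithelium that form the face. The samples make up 1 group of 2 biological replicates with no treatment or mutation in the labels, and male and female embryos were pooled. Replicate 2 was a pool of 51 embryos and replicate 1 a pool of 69 embryos. With no second tissue, stage or genotype, the comparisons are between genes within the tissue and between the pools.

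Imprinted genes are expressed mainly from the allele of 1 parent, and many of them control growth of the embryo and placenta. Mest and Igf2 are transcribed from the paternal allele and H19 from the maternal allele, while the Gnas region holds transcripts of either kind. A miRNA hairpin is cut out of a longer RNA by Drosha and Dicer, and either arm can be loaded into Argonaute, where bases 2 to 8 of the mature miRNA, the seed, select the targets. The counts do not separate the parental alleles or the arms of a hairpin, so each value below is the sum of both arms from both alleles.

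The sequences show how different the 5 hairpins are, and which small RNAs the counts stand for. The mature miRNAs, from RefSeq on GRCm38.p6, have the seed in capitals.
miR-335-5p: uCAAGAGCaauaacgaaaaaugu
miR-335-3p: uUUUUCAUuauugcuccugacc
miR-296-5p: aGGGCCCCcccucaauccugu
miR-296-3p: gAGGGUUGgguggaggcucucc
miR-298-5p: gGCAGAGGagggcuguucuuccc
miR-298-3p: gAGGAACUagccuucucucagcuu
miR-483-5p: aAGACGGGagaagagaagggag
miR-483-3p: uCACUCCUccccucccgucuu
miR-675-5p: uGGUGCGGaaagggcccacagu
miR-675-3p: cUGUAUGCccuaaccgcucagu
The 10 mature miRNAs carry 10 different seeds. None of the seeds occurs in a mature miRNA of another gene among the 1738 mature entries of the table, of which 68.0% have a seed found in no other gene. Within these entries, no member therefore has a seed relative whose counts could be set beside its own. A hairpin sequence was matched to 323 of the 376 detected genes.

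The hairpins of the highest and the lowest member are shown because they lie far apart in level and in base composition. In the following lines the mature arms are in capitals.
Mir335 hairpin: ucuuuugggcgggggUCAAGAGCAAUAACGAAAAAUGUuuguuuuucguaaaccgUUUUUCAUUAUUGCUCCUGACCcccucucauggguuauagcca
Mir675 hairpin: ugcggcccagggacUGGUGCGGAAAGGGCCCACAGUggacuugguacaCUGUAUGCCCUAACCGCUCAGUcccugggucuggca
The Mir335 hairpin has a GC content of 42.9%, and 19.8% of the 323 detected hairpins with a sequence lie below it. The Mir675 hairpin has 63.1% GC, with 90.7% of detected hairpins below it. The GC content is 63.3% for Mir296, 53.7% for Mir298 and 58.9% for Mir483, against a median of 50.5% over the detected hairpins. Mir675 also has the lowest predicted folding energy for its length among the 5, -0.667 kcal/mol per base, and Mir335 the highest, -0.452 kcal/mol per base; the median of detected hairpins is -0.434 kcal/mol per base. In the predicted folds, 16 to 20 bases of each 5p arm pair with the 3p arm. Across the 323 detected genes, hairpin GC and log2 level were nearly unrelated (Pearson's r -0.09, Spearman's rho -0.09), as a description over genes that share the same 2 libraries. Among the 869 hairpins with a sequence, none shares a stretch of 20 bases with a member, whereas 18.0% of the detected hairpins share such a stretch with another.

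Only some of the hairpins lie inside the genes that name their loci. Mir335 (ENSMUSG00000065501.1, chromosome 6, 30741299 to 30741396, plus strand, mm10) lies in an intron of every Mest transcript that spans it, intron 2 of Mest-210. Mir483 (ENSMUSG00000070140.1, chromosome 7, 142654924 to 142654996, minus strand) lies in intron 2 of Igf2-201, a transcript of the fetal growth factor gene Igf2, and also in an intron of the overlapping annotated gene Gm49394. Mir675 (ENSMUSG00000076275.1, chromosome 7, 142577064 to 142577147, minus strand) lies in exon 1 of H19-202, a long non-coding RNA, 77.8 kb from Mir483; in another H19 transcript it is intronic. Mir296 (ENSMUSG00000065521.1, chromosome 2, 174267047 to 174267125, minus strand) and Mir298 (ENSMUSG00000065410.1, chromosome 2, 174267504 to 174267585, minus strand) are 378 bases apart and overlap no other annotated gene. The nearest annotated gene to this pair is Nespas, the antisense transcript of the Gnas region, which is on the same strand and ends 13.7 kb from Mir298 in the annotation. Gnas itself, which encodes the stimulatory G protein alpha subunit, lies on the opposite strand, 16.7 kb from Mir298.

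**Figure D1:**
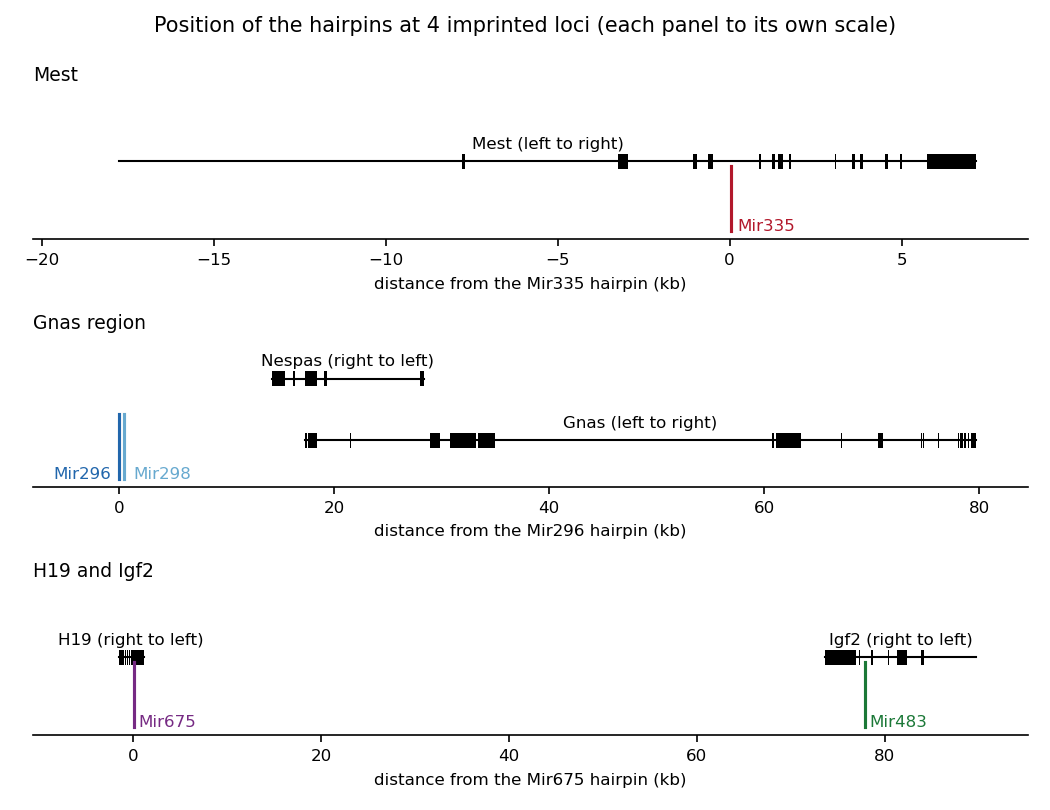
Position of the 5 hairpins (coloured lines) relative to Mest, Gnas, Nespas, H19 and Igf2, in kb from the hairpin named on each axis, with exons of basic GENCODE transcripts as blocks. Mir335, Mir483 and Mir675 sit inside a gene, and Mir296 and Mir298 lie 13.7 kb or more from the annotated end of Nespas.

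The libraries had 3517226 (replicate 2) and 2853511 (replicate 1) counts on the strand of a miRNA gene, the base of the levels in CPM (the count as parts in 1000000 of that total). Of the markers of facial mesenchyme, Mir214 (14538 ± 1041 CPM) and Mir143 (8449 ± 846 CPM) were abundant, while Mir199a-2 (184 ± 10.6 CPM), Mir145a (132 ± 10.7 CPM) and Mir199a-1 (10.6 ± 3.79 CPM) were not. The counts leave out reads that map to several places. Mir199a-1 and Mir199a-2 each share a stretch of 20 bases with another hairpin, so their values can be too low. The epithelial markers, the Mir200 family and Mir205, summed to 21745 CPM (replicate 2) and 25289 CPM (replicate 1), with 6 of 6 detected. The endothelial Mir126a had 33005 ± 1928 CPM, and the markers of leukocytes (419 and 429 CPM), red blood cells (180 and 400 CPM), liver (87.3 and 86.9 CPM) and muscle (131 and 80.3 CPM) had low sums. The limit that a count of 0 allows, 3 counts, was 0.853 CPM (replicate 2) and 1.05 CPM (replicate 1).

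All 5 genes were detected, meaning at least 10 counts in each library, whereas 19.1% of the 1973 genes were. This contrast is a description only, since the 5 genes were chosen with earlier results of these data known. Their levels spanned close to 3 orders of magnitude, and every one was at or above the median detected gene, which stood at 161 CPM in replicate 2 and 163 CPM in replicate 1. Together they held 17.3% of all miRNA counts in replicate 2 and 16.5% in replicate 1, a mean of 16.9% ± 0.574 (SD, n = 2). That total leaves out reads mapping to several places, so miRNAs with several copies weigh too little in it. Of the sum of the 5 genes Mir335 alone made up 91.2% ± 0.303, the Gnas pair 7.60% ± 0.293 and the Igf2 and H19 hairpins 1.24% ± 0.010. In bulk tissue, fewer cells of a type and less RNA per cell cannot be told apart, so a level is that of the whole pool.

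Mir335, the intronic miRNA of Mest, which is a gene of embryonic mesoderm, had 553024 counts in replicate 2 and 429622 counts in replicate 1. That was 157233 CPM in replicate 2 and 150559 CPM in replicate 1, or 15.7% (exact Clopper-Pearson 95% interval 15.7% to 15.8%) and 15.1% (15.0% to 15.1%) of all miRNA counts. It ranked at the top of all genes in both libraries, on counts that leave out reads mapping to several places (25.9% of reads in replicate 2 and 27.6% in replicate 1), which lowers miRNAs with several copies. Its level was 974 times that of the median detected gene in replicate 2 and 925 times in replicate 1. The nearest gene in level was Mir17, a miRNA of proliferating cells, with 101576 ± 2425 CPM, and Mir335 exceeded it in both libraries by more than either gene differed between them. Mir99a and Mir20a, next by likeness, lay 2.71 and 2.76 log2 units away, where the distance is Euclidean over log2 CPM in the 2 libraries.

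The Gnas pair formed the next tier. Mir296, whose product is known from human endothelial cells as a regulator of angiogenesis, had 26283 counts (7473 CPM) in replicate 2 and 18937 counts (6636 CPM) in replicate 1. It took rank 34 in replicate 2 and rank 35 in replicate 1. Mir298 had 21196 counts (6026 CPM) in replicate 2 and 15825 counts (5546 CPM) in replicate 1, at ranks 40 and 41. Both libraries thus placed Mir296 a little above its neighbour. The ratio of Mir296 to Mir298 was 1.24 (exact 95% counting interval 1.22 to 1.26) in replicate 2 and 1.20 (1.17 to 1.22) in replicate 1. That gap exceeded the larger of their own differences between the libraries, 1.13-fold, but by little. The genes most like Mir296 in level were Mir151 (7055 ± 897 CPM), Mir369 (7415 ± 154 CPM) and Mir744 (7691 ± 1010 CPM). Those most like Mir298 were Mir127 (6122 ± 148 CPM), Mir342 (5474 ± 464 CPM) and Mir1983 (6380 ± 1146 CPM). Mir369 and Mir127 are imprinted genes too, from the Dlk1-Dio3 region. Of the genes next to Mir296 and Mir298 in the ranking by mean level (Mir151, Mir302a, Mir127 and Mir342), none was separated from its neighbour by more than the difference between the libraries.

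The Igf2 and H19 hairpins differed widely, although their hosts neighbour each other. Mir483, which is raised together with IGF2 in human Wilms tumours, had 6954 counts (1977 CPM) in replicate 2 and 5319 counts (1864 CPM) in replicate 1, at ranks 78 and 79. Mir675, known from mouse placenta as a brake on growth, had 614 counts in replicate 2 and 466 counts in replicate 1. That was 175 CPM (exact 95% interval 161 to 189) in replicate 2 and 163 CPM (149 to 179) in replicate 1, at ranks 182 and 188. Its level was 1.08 times that of the median detected gene in replicate 2 and 1.00 times in replicate 1. Mir483 was higher than Mir675 11.3-fold (exact 95% counting interval 10.4 to 12.3) in replicate 2 and 11.4-fold (10.4 to 12.6) in replicate 1, so the ratio of this pair hardly differed between the pools. The genes most like Mir483 in level were Mir22 (1969 ± 114 CPM), Mir15b (1836 ± 145 CPM) and Mir1193 (2051 ± 105 CPM), the last of them from the Dlk1-Dio3 region. Those most like Mir675 were Mir7-1 (165 ± 4.93 CPM), Mir345 (172 ± 13.3 CPM) and Mir187 (169 ± 1.57 CPM). No gene next to Mir483 or Mir675 in the ranking by mean level was separated from it by more than the difference between the libraries.

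**Figure D2:**
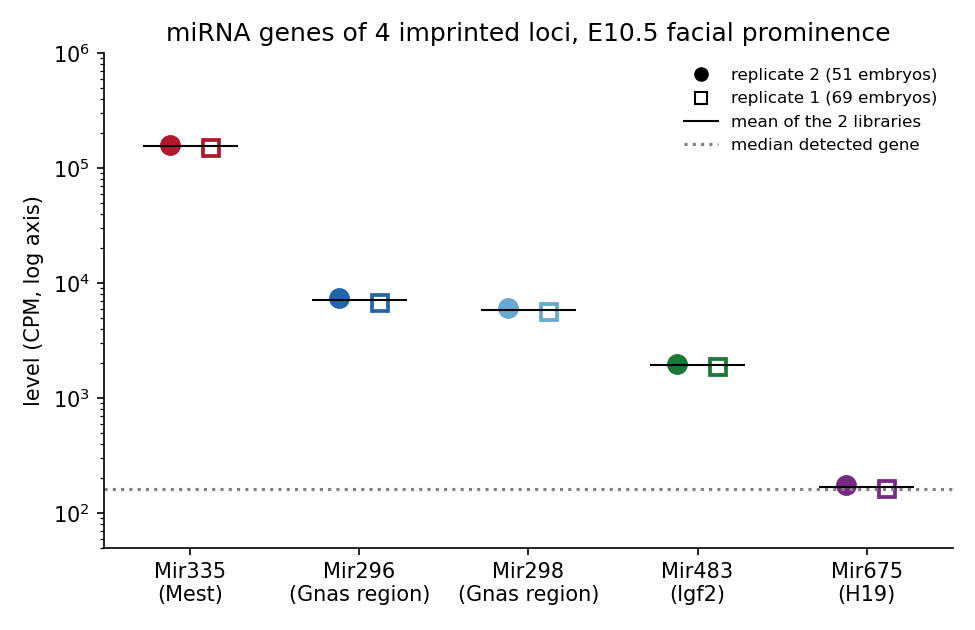
Level in CPM (log axis) of each gene in replicate 2 (filled circles) and replicate 1 (open squares), with the mean of both libraries as a line and the median detected gene as a dotted line. The genes keep the same order in both libraries, from Mir335 at 150559 CPM or more to Mir675 close to the median.

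The order Mir335, Mir296, Mir298, Mir483, Mir675 held in both libraries, and all 10 pairs were separated by more than the members' own differences between the libraries. Mir335 was 21.0 times Mir296 in replicate 2 and 22.7 times in replicate 1, and Mir298 was 3.05 times Mir483 in replicate 2 and 2.98 times in replicate 1. From end to end, Mir335 was 901 times Mir675 in replicate 2 (exact 95% counting interval 832 to 976) and 922 times in replicate 1 (842 to 1012). A small RNA read covers a whole mature miRNA, so levels were not divided by length, but on a scale per length the order was the same. The mean CPM per 100 bases of hairpin was 157037 for Mir335, 8930 for Mir296, 7056 for Mir298, 2631 for Mir483 and 201 for Mir675. These are differences in reads, not in molecules per cell. The intervals of these ratios cover counting error within a library, and no permutation test over 2 libraries can reach 0.05.

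**Figure D3:**
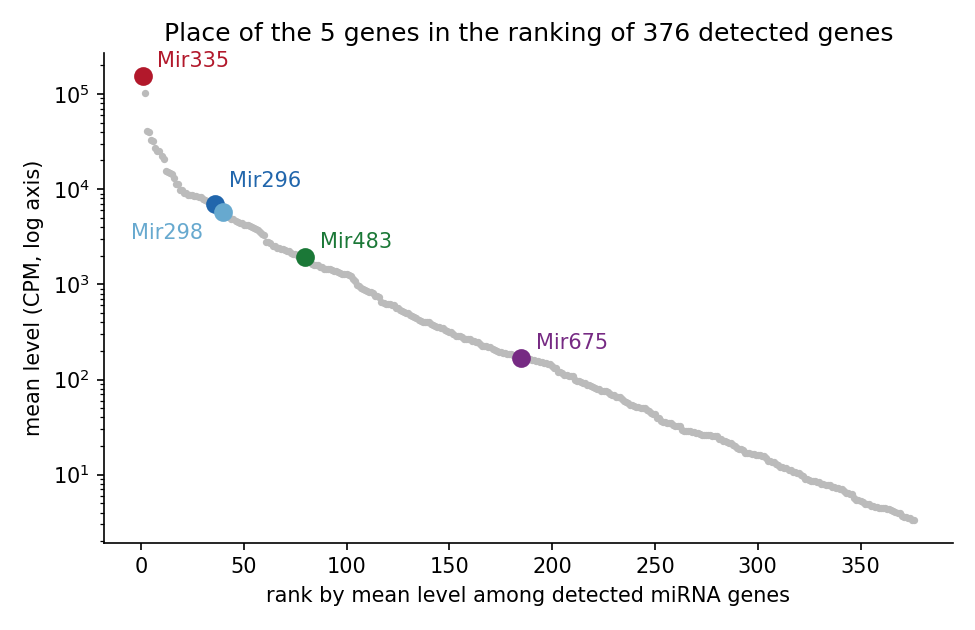
Mean level in CPM (log axis) against rank for the 376 detected miRNA genes (grey), with the 5 genes coloured; bars span the 2 libraries and are smaller than the points. Mir335 leads the ranking, Mir296, Mir298 and Mir483 lie within the top 80 and Mir675 is at rank 185.

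The reads were stranded at these loci. On the opposite strand, Mir335 had 1 count in replicate 2 and 2 counts in replicate 1, and the other 4 genes had 0 counts in both libraries, which allows up to 3 counts. Over all genes 97.6% of the counts in each library were on the gene's strand. The unstranded counts of the members were therefore nearly the same as those used here.

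All 5 genes were slightly higher in replicate 2 than in replicate 1, by 1.04-fold to 1.13-fold. By an exact two-sided binomial test of the counts with Benjamini-Hochberg adjustment over 449 genes, 4 of the 5 passed, all of them higher in replicate 2, where 40.3% of all genes passed in either direction and 20% passed as higher. The test has most power at high counts: the 4 that passed all had at least 1000 CPM, and of the genes at that level, a limit chosen after the values were seen, 91.3% passed. The test asks whether the libraries differ by more than counting error, and since copies made by PCR count as separate reads, its intervals and p-values cover counting error only. Mir296 had the largest difference, 1.13-fold higher (exact 95% counting interval 1.11 to 1.15, log2 ratio 0.17, adjusted p = 8.67e-35 by the exact binomial test). Mir298, its neighbour, was 1.09-fold higher (1.06 to 1.11, log2 ratio 0.12, adjusted p = 1.39e-14 by the exact binomial test). Mir335 was 1.04-fold higher (1.04 to 1.05, log2 ratio 0.06, adjusted p = 1.22e-99 by the exact binomial test). Mir483 was 1.06-fold higher (1.02 to 1.099, log2 ratio 0.08, adjusted p = 0.0039 by the exact binomial test), and this call did not hold when levels were scaled to all reads of the library (log2 ratio 0.046, adjusted p = 0.165 by the exact binomial test). Mir675 had a ratio of 1.07 (0.946 to 1.21, log2 ratio 0.10), which the exact binomial test did not call (adjusted p = 0.464).

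Markers of the tissue layers also differed between the pools, by a test that 91 of 449 genes passed as lower in replicate 2. Among genes of at least 1000 CPM 91.3% passed in either direction. That class includes Mir214, Mir143, the endothelial Mir126a and the epithelial Mir205, Mir429, Mir200c and Mir200b. Of the epithelial markers 5 of 6 passed the same test as lower in replicate 2 (median log2 ratio -0.22), as did 2 of 5 mesenchymal markers, Mir214 and Mir143 (median over the list -0.17). The erythroid Mir451a passed as lower (log2 ratio -1.32) and Mir144 did not pass, while the endothelial Mir126a passed as higher (0.12). Of the 4 muscle markers 1 passed as higher and 1 as lower, and none of the leukocyte or liver markers passed. The part of these shifts in the differences of the members was not tested.

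The ratios of the 5 genes were smaller in the median than those of all detected genes, many of which had lower counts. The median size of the log2 ratio was 0.10 over the 5 genes and 0.19 over the 376 detected genes. It was 0.12 over the detected miRNA genes between Dlk1 and Dio3, close to that of the 5 genes. It was 0.24 over the 10 detected in Sfmbt2. Over the 2 detected in other listed imprinted genes it was 0.56, and neither of these passed the exact binomial test. Ratios at low counts carry more counting error, and whether the 5 genes differ from genes of similar level was not tested. Between 17.3% (Mir335) and 45.2% (Mir296) of detected genes had a smaller ratio in size than the member. Except for Mir296, the members lay within 1.1-fold between the libraries, as did 34.3% of detected genes. The median signed log2 ratio was 0.10 over the 5 genes and 0.01 over all detected genes.

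**Figure D4:**
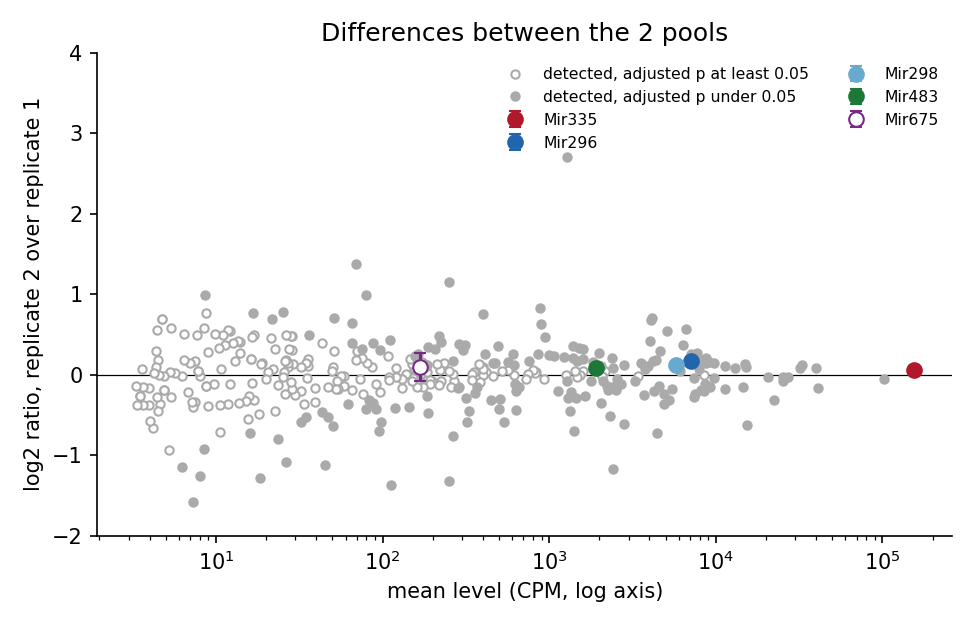
Log2 ratio of replicate 2 over replicate 1 against mean level in CPM (log axis) for detected miRNA genes; filled points have an adjusted p under 0.05 by the exact binomial test, and bars on the coloured genes are exact 95% counting intervals. The 5 genes lie between 0.06 and 0.17, close to the zero line.

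The sum of the 5 genes, taken over 4 loci, exceeded that of each other imprinted locus examined. It exceeded the Dlk1-Dio3 sum only with Mir335 included. The 59 miRNA genes between Dlk1 and Dio3 on chromosome 12, 46 of them detected, summed to 76782 ± 1959 CPM. Set against that sum, the 5 genes had 2.21 times as much in replicate 2 and 2.19 times in replicate 1. The counts leave out reads that map to several places. Some hairpins of the interval, such as Mir411, share a stretch of 20 bases with another hairpin, whereas no member does. The Dlk1-Dio3 sum can therefore be too low beside that of the members. Without Mir335, the other 4 genes had 15651 CPM in replicate 2 and 14210 CPM in replicate 1, or 19.4% ± 0.831 of the Dlk1-Dio3 sum (n = 2). The highest single genes of that interval were Mir487b (9738 ± 183 CPM), Mir411 (9126 ± 721 CPM) and Mir431 (8727 ± 890 CPM). All of them lay above Mir296, the higher gene of the Gnas pair, in both libraries, but below the sum of the pair.

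The 107 miRNA genes in Sfmbt2, an imprinted gene best known from placenta, summed to 5053 ± 621 CPM, with 10 of them detected. The 4 genes other than Mir335 had 2.85 times that sum in replicate 2 and 3.08 times in replicate 1. Its highest genes were Mir467c (1605 ± 254 CPM), Mir467d (1511 ± 244 CPM) and Mir467e (994 ± 120 CPM), below Mir483 in both libraries. Reads that map to several places are missing from the counts, which lowers this repeated cluster by construction.

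A written list of 81 imprinted genes was used to look for further miRNA genes, and 77 of them are in the annotation. Outside the loci above, these genes held 5 counted miRNA genes, 2 of them detected. Here a miRNA gene counted only if it lay inside a listed gene, whereas Mir296 and Mir298 overlap no other annotated gene. Mir3099, in Usp29, had 49.2 CPM in replicate 2 and 55.7 CPM in replicate 1, less than any of the 5 members. Gm23134, in Blcap, had 3.41 CPM in replicate 2 and 7.01 CPM in replicate 1. All imprinted loci together held 25.7% of miRNA counts in replicate 2 and 24.5% in replicate 1, and the 5 genes made up 67.4% and 67.3% of this.

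**Figure D5:**
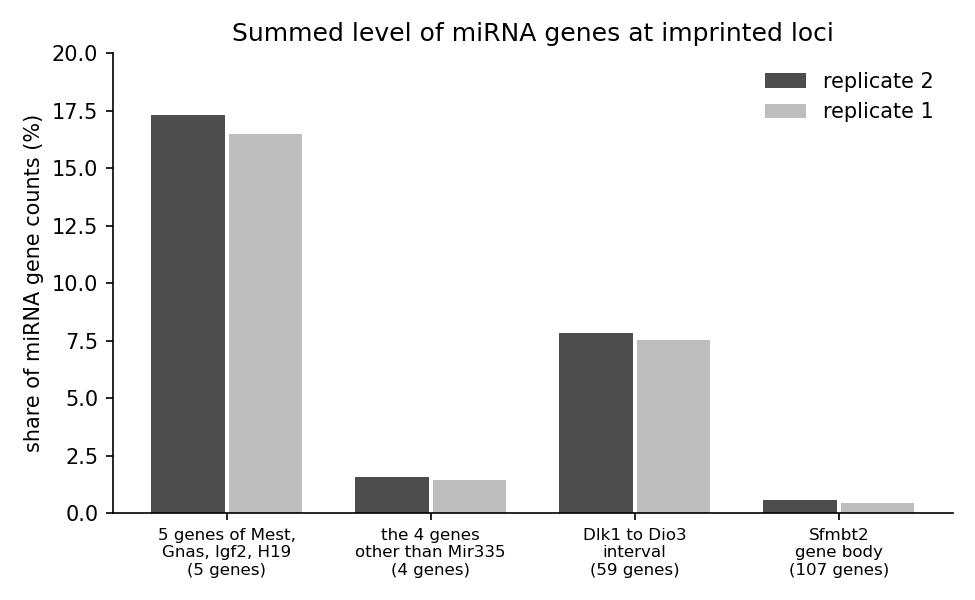
Share of all miRNA gene counts (%) in replicate 2 (dark bars) and replicate 1 (light bars) for the 5 genes, for the 4 genes other than Mir335, and for the miRNA genes of the Dlk1 to Dio3 interval and of Sfmbt2. The bar of the 5 genes is the tallest, at 17.3% and 16.5%, and falls to 1.57% and 1.42% without Mir335.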

How the data were processed

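Each library has a deposited table of raw read counts by miRNA gene, made by the authors on mm10 with GENCODE M4, per the file headers of the accompanying text files. The aligner is not given in the sources used here. Levels rest on gene-strand counts, and 4 summary lines stayed out of the totals. In replicate 2 25.9% of reads mapped to several places and 24.1% were unmapped, and in replicate 1 27.6% and 21.6%.

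Symbols and positions came from GENCODE M21 on the same build (1894 of 1973 identifiers matched), and sequences from RefSeq (GRCm38.p6). CPM is the count over the total of all genes. The SD is over 2 libraries. Log2 ratios used a pseudocount of 0.5 CPM. Genes with at least 10 counts in all were tested with an exact binomial test (scipy 1.17.1), which was tested on simulated data. The simulated counts held counting error only, so they do not cover the larger differences between these libraries. An edgeR contrast has no residual degrees of freedom here. Intervals and the limit of 3 counts cover counting error only. Folds came from RNAfold 2.7.2, scaling alternatives from edgeR 4.0.16 and DESeq2 1.42.0. The chi-square per degree of freedom between the libraries was 83.9, so they are not 1 library deposited again.

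The members and the lists were chosen with earlier results of these data known. Genes named are the members, the 3 genes nearest to each in level, genes with a shared seed (none) and the 3 highest detected genes of other imprinted loci. Genes next in rank and the marker genes are named besides.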

Additional observations from a re-analysis of the deposited data

How the results depend on the processing

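The order of the 5 genes and their detection held under every alternative tried, and no ratio between the libraries changed sign. Scaled to all reads of the library instead of the miRNA counts, the level was 63448 CPM of all reads for Mir335, 2907 for Mir296, 2385 for Mir298, 792 for Mir483, 69.6 for Mir675 and 69602 for their sum. On that scale the log2 ratio of Mir483 was 0.046 (adjusted p = 0.165 by the exact binomial test) and no longer passed; the other ratios stayed on their side of the threshold under all scalings. With Mir335 left out of the total, Mir296 had 8340 CPM, Mir298 6840 CPM, Mir483 2270 CPM and Mir675 199.7 CPM, and with the 2 highest genes left out Mir335 had 206714 CPM, by construction of a smaller total. Leaving out either library gave 150559 to 157233 CPM for Mir335, 6636 to 7473 CPM for Mir296, 5546 to 6026 CPM for Mir298, 1864 to 1977 CPM for Mir483, 163 to 175 CPM for Mir675 and 164769 to 172884 CPM for their sum. Between 169 and 186 genes passed the exact binomial test, against 181 in the values reported. No paired analysis was possible because the samples form 1 group. With 2 libraries the SD is itself uncertain, and the depth limits Mir675, whose counting interval of the ratio includes equality.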
